A study of Rattus norvegicus with 14 samples.

Results

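Cultured rat aortic smooth muscle cells that had been given platelet-derived growth factor (PDGF) for 2 h after pretreatment with the BET inhibitor JQ1 were compared with unstimulated cells, to describe what of the early response to PDGF was present while BET proteins were inhibited. The members are the 3 libraries of JQ1 plus PDGF at 2 h and the 2 unstimulated libraries, chosen by their column names, 5 of 14 libraries in the series. All cells were rat aortic smooth muscle cells from a commercial supplier (Lonza), kept for 24 h without serum. The unstimulated cells (0 h) received neither agent. The treated cells received JQ1 at 500 nM for 3 h and then PDGF at 925 ng/ml, as the labels give the dose, for 2 h. The 3 libraries of PDGF at 2 h without JQ1 were set beside them. Libraries of JQ1 alone, or of unstimulated cells kept for the same hours, were not analysed here, so JQ1, PDGF and time in culture enter the comparison with 0 h together. Titles of libraries without JQ1 end in the letters A to D and those with JQ1 in E to H, so JQ1 and any batch that these letters mark cannot be told apart. No label says that replicates came from separate cultures, and the p-values then measure the spread between these samples alone, which may be technical.

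PDGF binds receptor tyrosine kinases on smooth muscle cells and acts through the ERK kinases and other routes on serum response factor and related factors, which switch on immediate early genes within minutes without new protein synthesis. Those genes encode transcription factors, phosphatases that shut the kinases off again, and secreted signals, and in the vessel wall PDGF is known for driving smooth muscle cells out of the contractile state. BET proteins read acetylated histones and help to recruit the elongation kinase P-TEFb, and JQ1 displaces them from chromatin.

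Polyadenylated RNA was sequenced from stranded libraries and deposited as FPKM, fragments scaled by transcript length and by library size, on an unnormalised scale and on a normalised scale on which the added spike-in transcripts are brought together. Levels below are normalised FPKM in library order (replicates 0 and 1 of unstimulated cells, 0 to 2 of each treated group, numbered as in the column names), and differences are log2(normalised FPKM + 1) with their standard error (SE), tested with limma over 10133 genes at a Benjamini-Hochberg adjusted p under 0.05. Depth is unknown for FPKM tables, and the 5 libraries listed 10300 to 11152 genes above 0. An exact 0 can be a failed estimate, since the reference gene Hprt1 was listed at 0 in all 5. Rank correlations within the 2 groups were 0.964 to 0.976. Spike-ins took 2.66% ± 0.178 (SD, n = 2) of all unnormalised FPKM in unstimulated cells and 2.38% ± 0.0814 (SD, n = 3) with JQ1 plus PDGF. With PDGF alone they took 2.08% ± 0.237 (SD, n = 3). The spike-ins were dosed to the RNA of a set number of cells, per the labels. Their share then follows RNA per cell only as far as that number was kept, which was not tested. In JQ1 plus PDGF replicate 1 the normalisation moved values near 1 FPKM up by 0.13 on the log2 scale, whereas in replicates 0 and 2 it moved them by -0.64 and -0.43. The shift of such values was 0.90 in PDGF replicate 1, beside -0.30 and -0.05 in PDGF replicates 0 and 2. In unstimulated replicates 0 and 1 it was -0.01 and -0.11. Highly expressed genes moved down in all JQ1 plus PDGF libraries, by -0.37, -0.29 and -0.27 in replicates 0 to 2. The same genes moved by -0.15 and 0.05 in unstimulated replicates 0 and 1, and by -0.10, -0.02 and 0.21 in the PDGF replicates. These shifts are medians of log2 of normalised FPKM over unnormalised FPKM + 0.1, and so lie below those of the plain ratio. All 7 smooth muscle markers were detected, with summed unnormalised levels of 11093 to 11490 FPKM in unstimulated cells and 17820.4 to 18203 with JQ1 plus PDGF. Unnormalised FPKM over all genes also summed higher with JQ1 plus PDGF, from 554855 to 580909 in unstimulated cells to 752892 to 755478. Of the 7 markers, 2 were higher and 2 lower on the normalised scale (4 and 2 unnormalised). Over all genes 13.2% were higher and 33.7% lower (25.3% and 27.4% unnormalised). The 7 endothelial markers summed to 45.4 to 46.7 unnormalised FPKM in unstimulated cells and 21.2 to 22.8 with JQ1 plus PDGF. Pecam1, Cdh5, Kdr and Tie1 were at 0 in all 5 libraries. The 7 leukocyte markers summed to 13.8 to 17.7 and 6.72 to 11.9 FPKM, with Ptprc and Cd3e at 0 in all 5. Of 7 markers of adventitial fibroblasts, 5 were in the tables and summed to 125 to 129.9 and 90.2 to 108 FPKM, with Dpt at 0 in all 5. Eng (-1.29), Cd14 (-1.56), Pdgfra (-2.57) and Lum (-0.55) were the tested markers of these 3 cell types that passed, all lower with JQ1 plus PDGF, and Lum did not pass on the unnormalised scale. The part of such cells in the results was not tested.

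With JQ1 plus PDGF, 1339 of 10133 genes (13.2%) were higher than in unstimulated cells and 3410 (33.7%) were lower. On the unnormalised scale the balance was nearly even, with 2527 of 10001 genes (25.3%) higher and 2736 (27.4%) lower. The scales differ by level and library, as given above, and in their centre: the median log2 difference was -0.27 on the normalised and -0.05 on the unnormalised scale. A member's difference of about -0.27 is therefore that of the median gene. The comparison of PDGF without JQ1 shares the unstimulated libraries. In it 1796 genes (17.7%) were higher and 1282 (12.7%) lower, around a median of 0.01. Without unstimulated replicate 0 those counts were 1019 and 582, and without replicate 1 they were 1335 and 618. Against PDGF directly, 734 genes (7.24%) were higher with JQ1 and 3449 (34%) lower on the normalised scale, and 1986 (19.9%) and 2152 (21.5%) of 10001 on the unnormalised scale. Without PDGF replicate 1 the normalised counts were 717 and 3068.

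**Figure D1:**
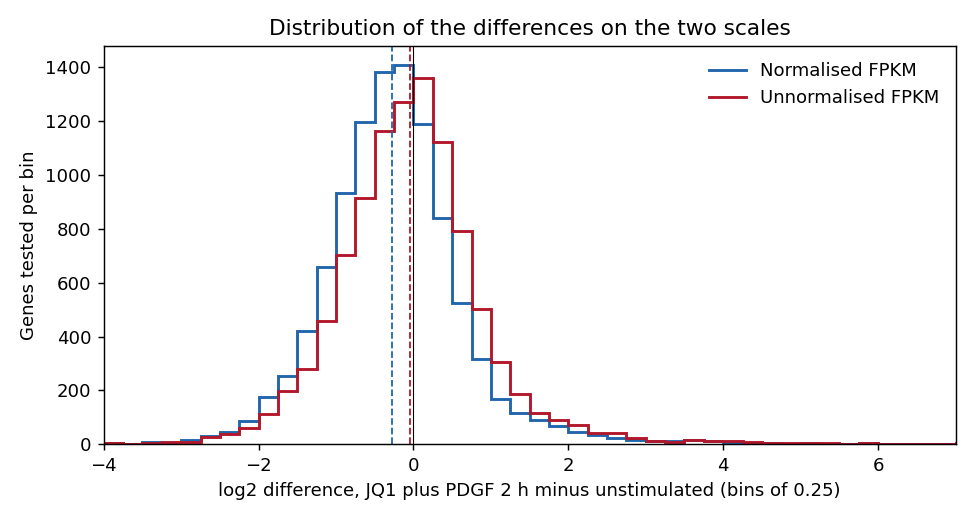
Number of tested genes (vertical axis) in bins of 0.25 of the log2 difference between JQ1 plus PDGF at 2 h and unstimulated cells (horizontal axis), on the normalised and the unnormalised FPKM scale, with each median as a dashed line. The normalised distribution sits lower, with its median at -0.27 against -0.05, and both have a long arm of higher genes.

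Early transcription factors and feedback regulators had most members higher than in unstimulated cells in both treated groups. On the normalised scale, interferon-response, cytokine, amino acid and ribosome biogenesis genes had fewer members higher with JQ1 plus PDGF than with PDGF alone. Over all genes the shares higher were 13.2% and 17.7%. For ribosome biogenesis the counts were close on the unnormalised scale, at 15 and 17 of 24. Mitotic and replication genes were mostly lower with JQ1 plus PDGF.

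**Figure D2:**
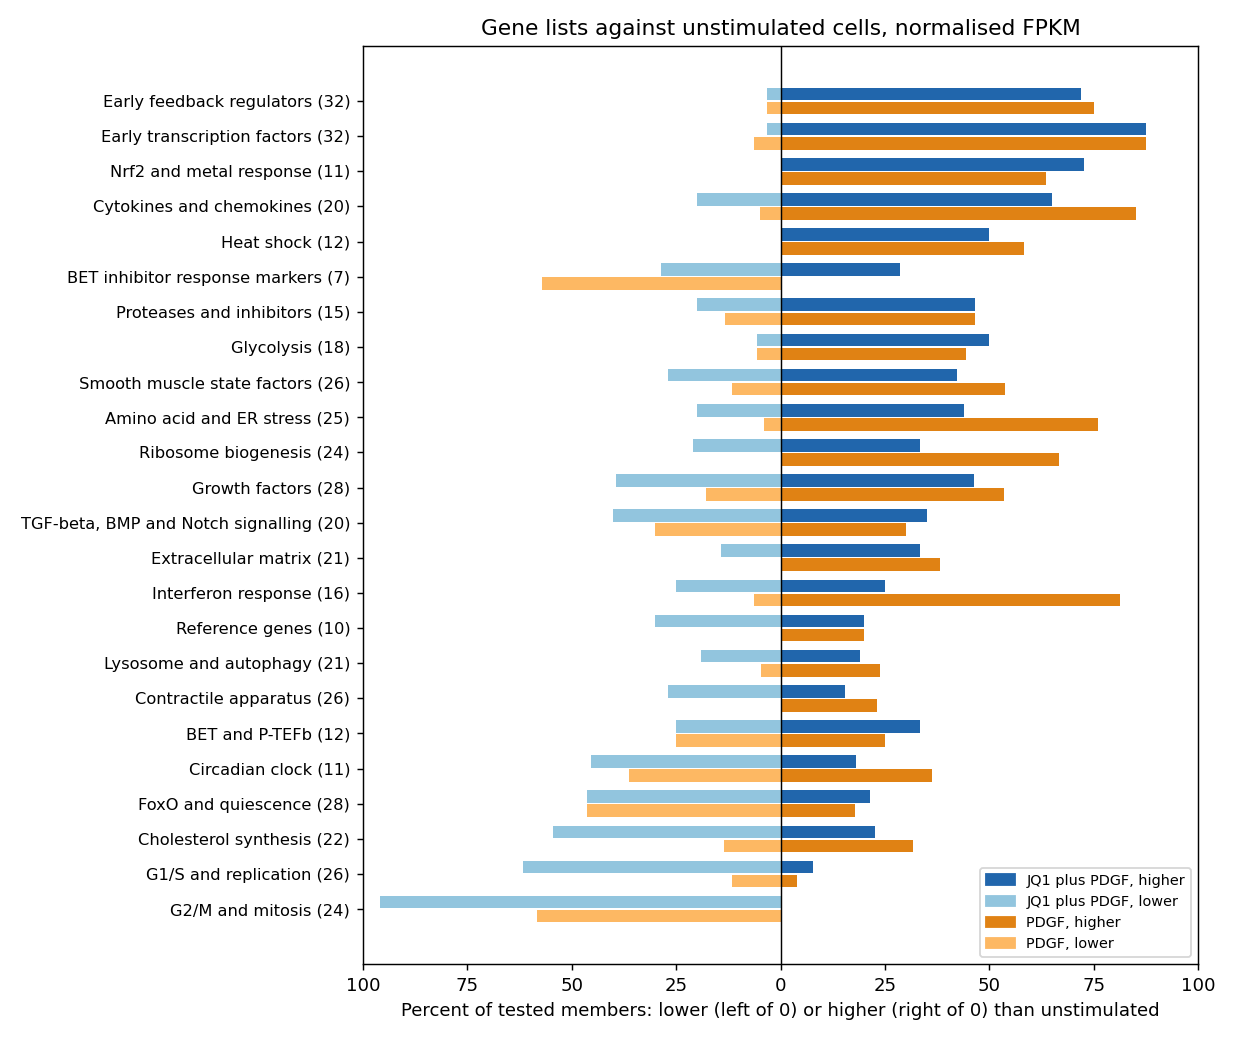
Percent of the tested members of each gene list (number in brackets) that passed as higher (right) or lower (left) than unstimulated cells, for JQ1 plus PDGF at 2 h (blue) and PDGF at 2 h (orange), on normalised FPKM and in order of the median difference with JQ1. Early transcription factors (28 of 32 higher) and feedback regulators (23 of 32) lead at the top, and mitotic genes (23 of 24 lower) are at the bottom.

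The immediate early transcription factors were raised almost throughout under JQ1. Of 32 members, all tested, 28 were higher with JQ1 plus PDGF than in unstimulated cells and 1 was lower, on both scales, beside 13.2% and 33.7% of all genes on the normalised scale, with a median log2 difference of 2.32 against -0.27 over all genes. In the comparison of PDGF without JQ1, 28 were higher and 2 lower (17.7% and 12.7% of all genes), with a median of 2.14. Egr1, a zinc finger factor induced through serum response factor, stood at 14.6 and 14.8 normalised FPKM in unstimulated cells, 337, 367 and 465 with PDGF and 459, 567 and 527 with JQ1 plus PDGF. Both treated groups lay far above the unstimulated libraries and overlapped each other. The log2 difference from unstimulated cells was 5.04 ± 0.16 (SE; limma adjusted p = 4.97e-12). Its difference from PDGF, 0.42 ± 0.15, passed with all libraries but not without JQ1 plus PDGF replicate 1 (0.35) or 2 (0.40) or PDGF replicate 0 (0.32) or 1 (0.38). The related Egr3 went from 3.05 and 0.463 to 102, 120.4 and 123 normalised FPKM, a log2 difference of 5.57 ± 0.33, and Nr4a1, an orphan nuclear receptor, from 4.21 and 3.55 to 202, 278 and 235, a difference of 5.61 ± 0.20. Fosb, a partner of JUN in the AP-1 factor, was at 0.461 and 1.12 in unstimulated cells and at 64.4, 83.6 and 71.6 with JQ1 plus PDGF, beside 62.5, 86.1 and 72.7 with PDGF. The 2 treated groups overlapped for Fosb and for Nr4a1, and their differences of -0.01 ± 0.20 and 0.22 ± 0.18 did not pass, though that of Nr4a1 did on the unnormalised scale (0.55). Atf3, a stress-induced factor of the same dimer family, differed from unstimulated cells by 5.03 ± 0.17. Junb and Fosl1, further AP-1 members, were 3.30 ± 0.13 and 5.02 ± 0.25 above unstimulated cells.

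Against PDGF directly, 9 of the 32 factors were higher and 8 lower with JQ1, beside 7.24% and 34% of all genes (15 and 5 on the unnormalised scale). Fos, the founding immediate early gene, was at 1.76 and 0.558 normalised FPKM in unstimulated cells, 6.97, 11.4 and 8.95 with PDGF and 28.5, 28.2 and 25.7 with JQ1 plus PDGF. The 3 groups did not overlap, and the log2 difference between the treated groups was 1.51 ± 0.22 (SE; limma adjusted p = 8.91e-05). Jun and Klf4 were also above PDGF, by 0.83 ± 0.13 and 0.76 ± 0.15. Klf4 encodes a factor known for repressing smooth muscle genes. Klf2, a factor best known in endothelium under flow, was lower with PDGF (3.46, 4.85 and 3.94 normalised FPKM) than in unstimulated cells (7.03 and 7.01) and was at 30.4, 45.5 and 35.7 with JQ1 plus PDGF. No library overlapped between groups, and Klf2 was 2.23 ± 0.18 above unstimulated cells. Jund, the AP-1 member that resting cells already carry, rose from 79.3 and 61.04 to 212, 227 and 266 normalised FPKM, a log2 difference of 1.74 ± 0.14 beside 0.57 ± 0.14 with PDGF alone.

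Other factors were raised to a level below that of PDGF. Nr4a3 reached 52.99, 73.6 and 66.4 normalised FPKM with JQ1 plus PDGF against 142, 167 and 179 with PDGF, from 1.71 and 1.33 in unstimulated cells. Its difference from unstimulated cells was 4.69 ± 0.21 and from PDGF -1.33 ± 0.19, with no overlap in either. Fosl2 of the same family was 0.99 ± 0.18 above unstimulated cells and -1.30 ± 0.16 from PDGF. Egr2 was 3.51 ± 0.21 and -0.80 ± 0.19 from the same groups. Of the 4 factors that were not higher than in unstimulated cells, Bhlhe40, a repressor of the clock, fell from 33.97 and 34.8 to 22.1, 20.4 and 22.3 normalised FPKM, a log2 difference of -0.65 ± 0.13. Per1, Cebpd and Id2 did not pass, at 0.20 ± 0.22, -0.44 ± 0.18 and -0.15 ± 0.53. Id2, an inhibitor of helix-loop-helix factors, was at 3.29, 0.219 and 4.83 normalised FPKM with PDGF but at 17.4, 13.00 and 18.3 with JQ1 plus PDGF and 20.3 and 15.9 in unstimulated cells. Its PDGF libraries lay below all others, and the difference between the treated groups was 2.45 ± 0.47.

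Feedback regulators, which damp kinase, receptor or cytokine signalling or break down messenger RNA, followed a similar course. Of 33 members 32 were tested, and 23 were higher and 1 lower than in unstimulated cells (24 and 1 on the unnormalised scale), with a median log2 difference of 2.34. The comparison of PDGF alone gave 24 and 1, beside 17.7% and 12.7% of all genes. The shares of all genes with JQ1 plus PDGF were 13.2% higher and 33.7% lower. Dusp5, a nuclear phosphatase of ERK, went from 1.99 and 0.686 normalised FPKM in unstimulated cells to 188, 262 and 239.7 with JQ1 plus PDGF, beside 121, 154 and 171 with PDGF. Its JQ1 plus PDGF libraries lay above all others. The log2 difference from unstimulated cells was 6.67 ± 0.24 (SE; limma adjusted p = 1.61e-11). That from PDGF was 0.63 ± 0.22 and did not pass without JQ1 plus PDGF replicate 1 (0.53) or 2 (0.59) or PDGF replicate 0 (0.48). Dusp6, the cytoplasmic ERK phosphatase, was 3.24 ± 0.16 above unstimulated cells. Zfp36, which binds AU-rich elements and speeds the decay of cytokine messages, was at 21.8 and 24.3 normalised FPKM in unstimulated cells, 95.99, 94.00 and 126 with PDGF and 177, 232 and 212 with JQ1 plus PDGF. The groups did not overlap, and Zfp36 was 3.11 ± 0.18 above unstimulated cells and 0.97 ± 0.16 above PDGF.

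Against PDGF, 9 feedback regulators were higher and 14 lower with JQ1 (13 and 12 unnormalised). Over all genes 7.24% were higher and 34% lower (19.9% and 21.5% unnormalised). Gadd45a, a stress sensor that binds cell cycle and repair proteins, was at 24.7 and 15.3 in unstimulated cells, 31.2, 25.9 and 32.8 with PDGF and 101.1, 105 and 113 normalised FPKM with JQ1 plus PDGF. These JQ1 plus PDGF libraries lay far above the rest, by 2.39 ± 0.19 and 1.80 ± 0.17. Gadd45b and Nfkbia, which encodes the inhibitor that holds NF-kappaB in the cytoplasm, were also higher than in both other groups, by 1.25 ± 0.15 and 0.98 ± 0.19 against unstimulated cells and 1.22 ± 0.14 and 0.75 ± 0.17 against PDGF. Rgs16, a brake on G protein signalling, had the lowest difference from PDGF on the list. It stood at 1.25 and 2.83 normalised FPKM in unstimulated cells, 121, 146 and 165 with PDGF and 6.07, 10.1 and 7.77 with JQ1 plus PDGF. No library overlapped, and the log2 difference was 1.59 ± 0.27 from unstimulated cells and -4.03 ± 0.24 from PDGF (limma adjusted p = 2.09e-08). Its relative Rgs2 was raised to 774, 834 and 813 normalised FPKM, 4.68 ± 0.18 above unstimulated cells and -0.91 ± 0.16 from PDGF. Spry4, an inhibitor of receptor tyrosine kinase signalling, did not pass against unstimulated cells (0.06 ± 0.23), with 9.51 and 6.88 and 8.23, 8.63 and 8.60 normalised FPKM, while PDGF without JQ1 gave 16.5, 21.6 and 21.5. Rgs4 was the member that fell, from 74.7 and 91.8 to 15.2, 13.3 and 12.4 normalised FPKM, a log2 difference of -2.52 ± 0.22.

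**Figure D3:**
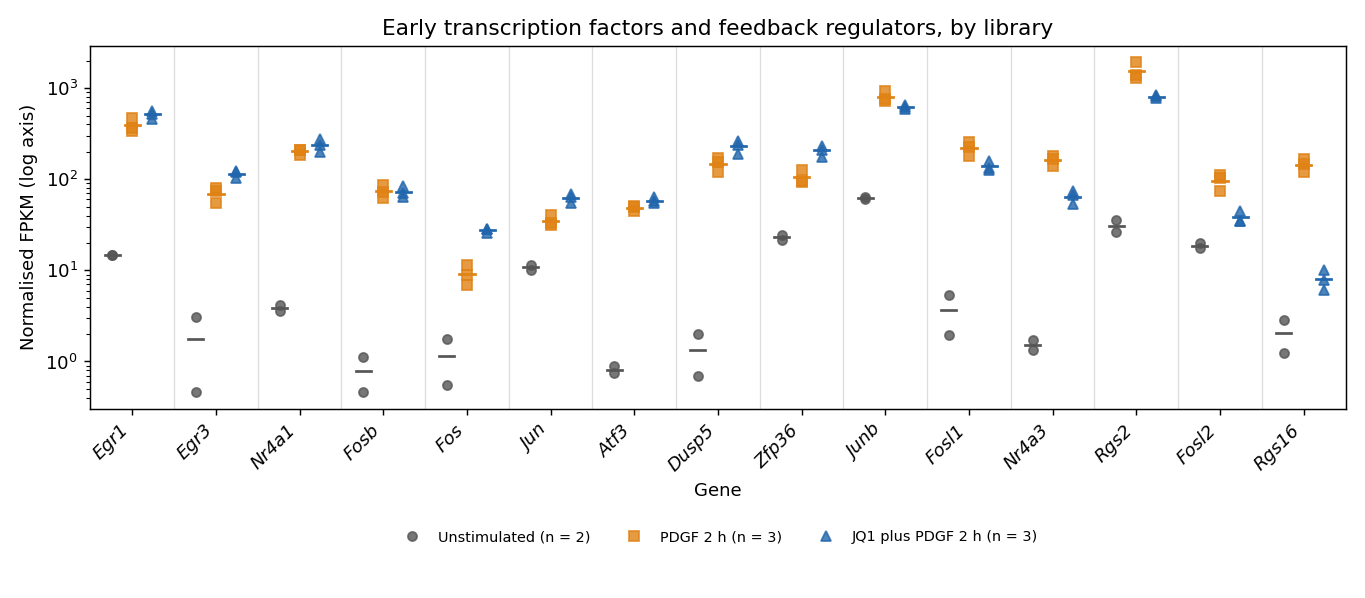
Normalised FPKM (log axis) of 15 early transcription factors and feedback regulators in each library of unstimulated, PDGF 2 h and JQ1 plus PDGF 2 h cells, with group means as bars. For all 15 genes every JQ1 plus PDGF library lies above both unstimulated libraries, and for Rgs16 the JQ1 plus PDGF libraries lie far below those of PDGF.

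Promoters of these early genes were read from RefSeq (GRCr8, 250 bases before to 50 after the start) and searched on both strands. The CArG box, to which serum response factor binds, occurred in 1.64% of all 33469 promoters of this length. It was found in 4 of the 22 early transcription factors with a sequence (18.2%; Egr1, Egr2, Klf6 and Srf) and in 2 of 27 feedback regulators with a single sequence (7.41%; Dusp5 and Zfp36). The promoters of Dusp5 and Zfp36 are printed because both genes were higher with JQ1 plus PDGF than with PDGF, Dusp5 with the limits given above; they were chosen after their values were seen. Capitals mark the CArG boxes, of which Dusp5 has 2 side by side, starting 82 and 72 bases before the start, and Zfp36 has 1, starting 32 bases before it.
Dusp5 (GRCr8, chr1:262543524-262543823, plus strand): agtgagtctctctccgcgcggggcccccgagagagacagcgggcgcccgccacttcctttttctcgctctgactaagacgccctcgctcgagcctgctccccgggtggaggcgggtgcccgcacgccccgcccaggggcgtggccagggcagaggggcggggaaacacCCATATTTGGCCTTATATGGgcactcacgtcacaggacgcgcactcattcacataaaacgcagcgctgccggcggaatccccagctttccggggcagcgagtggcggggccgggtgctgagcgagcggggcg
Zfp36 (GRCr8, chr1:92799059-92799358, minus strand): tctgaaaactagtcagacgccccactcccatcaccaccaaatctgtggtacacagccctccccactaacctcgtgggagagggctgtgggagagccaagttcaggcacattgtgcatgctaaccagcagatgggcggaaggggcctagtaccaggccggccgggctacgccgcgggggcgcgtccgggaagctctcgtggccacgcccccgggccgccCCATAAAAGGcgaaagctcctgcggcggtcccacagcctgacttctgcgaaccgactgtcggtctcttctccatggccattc
Egr2, with a CArG box of its own, was lower with JQ1 plus PDGF than with PDGF, as given above, so genes with this motif did not share a direction against PDGF. A match describes the letters of this window and is no evidence of binding.

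Cytokines, chemokines and their regulators were raised in part. Of 32 members, 20 were tested, 11 did not reach 1 FPKM in 2 libraries and Relb was not analysed here. With JQ1 plus PDGF, 13 of 20 were higher and 4 lower than in unstimulated cells (14 and 3 unnormalised), with a median of 1.55. Without unstimulated replicate 0 the lower members were 2. PDGF alone gave 17 higher and 1 lower (17.7% and 12.7% of all genes), with a median of 2.23. Directly against PDGF, 0 were higher and 14 lower (4 and 13 unnormalised). All genes gave 7.24% higher and 34% lower against PDGF (19.9% and 21.5% unnormalised). Against unstimulated cells they gave 13.2% higher and 33.7% lower with JQ1 plus PDGF.

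One set of members reached levels within or next to those of PDGF. Il1rl1, the receptor of IL-33, went from 3.12 and 3.55 normalised FPKM in unstimulated cells to 65.4, 109 and 83.5 with JQ1 plus PDGF, beside 59.8, 84.1 and 80.9 with PDGF. Clcf1, a cytokine of the IL-6 family, went from 8.83 and 5.96 to 129.6, 134 and 136, beside 98.2, 121 and 134. For both genes the treated groups overlapped. Their log2 differences from unstimulated cells were 4.30 ± 0.21 and 4.02 ± 0.20. The colony-stimulating factor Csf1 and the adhesion molecule Icam1 were 2.49 ± 0.16 and 2.16 ± 0.16 above unstimulated cells, and from PDGF they differed by 0.26 ± 0.14 and -0.08 ± 0.15, which did not pass. On the unnormalised scale, where the whole distribution sits higher, all 4 genes were above PDGF, Il1rl1 by 0.51, Clcf1 by 0.52, Csf1 by 0.59 and Icam1, whose sign turned, by 0.25. Without PDGF replicate 2, Csf1 also passed on the normalised scale (0.40).

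A second set rose to intermediate levels. Ccl7, a monocyte chemoattractant, was at 2.59 and 3.73 normalised FPKM in unstimulated cells, 412, 455 and 404 with PDGF and 82.6, 50.3 and 65.1 with JQ1 plus PDGF. Its neighbour in function Ccl2 was at 1.94 and 2.19, 205, 192 and 195 and 39.9, 21.3 and 31.3 in the same order. In both genes the 3 groups were wholly apart. The log2 difference from unstimulated cells was 3.995 ± 0.20 for Ccl7 and 3.33 ± 0.20 for Ccl2, and from PDGF -2.69 ± 0.18 and -2.68 ± 0.18 (limma adjusted p = 4.74e-08 and 6.28e-08). Lif, Ptgs2 and Cxcl10 lay between the groups in like manner. Lif, a cytokine of the IL-6 family, was 3.70 ± 0.33 above unstimulated cells and -2.09 ± 0.30 from PDGF. Ptgs2, the inducible cyclooxygenase, was 3.44 ± 0.23 and -1.64 ± 0.20 from the same groups, and Cxcl10, a T cell chemoattractant, 3.21 ± 0.42 and -1.51 ± 0.37.

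The other members described here were below, near or slightly above the unstimulated level. Il6 was at 2.53 and 1.34 normalised FPKM in unstimulated cells, 5.65, 11.4 and 4.26 with PDGF and 0.0640, 0.113 and 0.736 with JQ1 plus PDGF, and the unnormalised table lists it at 0 in 2 of the JQ1 plus PDGF libraries. These libraries lay below all others, -1.18 ± 0.36 from unstimulated cells and -2.57 ± 0.32 from PDGF. Vcam1, an adhesion molecule for leukocytes, was at 1.38 and 1.26, 3.36, 1.56 and 3.22 and 0.0856, 0.218 and 0.0996, with a log2 difference of -1.03 ± 0.29 from unstimulated cells. Cxcl1, a neutrophil chemoattractant, spread widely at 0.0674, 5.49 and 1.66 normalised FPKM around the unstimulated 1.59 and 1.38, a difference of 0.09 ± 0.58 that did not pass, and all 3 libraries lay under those of PDGF (7.53, 11.7 and 18.2). The NF-kappaB subunit gene Nfkb1 was 0.46 ± 0.18 above unstimulated cells and -1.42 ± 0.16 from PDGF. Cxcl12, the ligand of CXCR4, fell from 1098 and 1261 to 413, 459 and 457 normalised FPKM, -1.41 ± 0.17 on the log2 scale. Without unstimulated replicate 0 the differences from unstimulated cells of Il6 (-0.88), Vcam1 (-0.996) and Nfkb1 (0.26) no longer passed, and that of Nfkb1 was also lost without JQ1 plus PDGF replicate 1 (0.37) or 2 (0.46).

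An NF-kappaB site was found in the promoters of 11 of the 23 cytokine-list genes with a single sequence (47.8%), against 7.51% of all promoters. The 11 are Ccl7, Ccl20, Cxcl1, Cxcl2, Cxcl10, Il6, Vcam1, Nfkb1, Nfkb2, Nfkbiz and Irf1. Of the 9 that were tested, 8 were lower with JQ1 plus PDGF than with PDGF, on both scales, and Irf1 did not pass (-0.12 ± 0.30). Among all 20 tested cytokine genes, 14 were lower (13 unnormalised), and among all genes 34% (21.5% unnormalised). A match is no evidence of binding, and a link between this site and the difference from PDGF was not tested. The promoters of Ccl7, Cxcl1 and Il6 are printed, after their values were seen, as an example each of an intermediate, an unraised and a lowered gene. Capitals mark the NF-kappaB sites, which start 59 bases before the start in Ccl7, 84 in Cxcl1, where a second match begins 83 bases before the start and overlaps the first, and 68 in Il6.
Ccl7 (GRCr8, chr10:67513845-67514144, plus strand): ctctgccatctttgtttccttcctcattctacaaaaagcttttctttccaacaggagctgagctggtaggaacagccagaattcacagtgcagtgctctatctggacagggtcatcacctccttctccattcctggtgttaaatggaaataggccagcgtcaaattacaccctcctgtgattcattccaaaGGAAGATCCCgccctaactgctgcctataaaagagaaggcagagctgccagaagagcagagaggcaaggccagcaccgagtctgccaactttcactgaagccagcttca
Cxcl1 (GRCr8, chr14:17479272-17479571, minus strand): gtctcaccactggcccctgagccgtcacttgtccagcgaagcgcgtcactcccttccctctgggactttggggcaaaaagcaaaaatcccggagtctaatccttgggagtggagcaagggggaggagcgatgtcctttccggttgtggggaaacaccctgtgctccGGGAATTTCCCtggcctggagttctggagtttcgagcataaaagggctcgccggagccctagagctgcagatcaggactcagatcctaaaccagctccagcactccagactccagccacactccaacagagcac
Il6 (GRCr8, chr4:5894526-5894825, minus strand): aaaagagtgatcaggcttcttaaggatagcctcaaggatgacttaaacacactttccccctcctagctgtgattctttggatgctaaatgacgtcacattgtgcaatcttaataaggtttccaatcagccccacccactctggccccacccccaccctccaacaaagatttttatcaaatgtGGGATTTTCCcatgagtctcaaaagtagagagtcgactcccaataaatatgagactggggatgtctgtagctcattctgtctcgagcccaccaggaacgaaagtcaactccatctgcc
Il6 also holds a cAMP response element (TGACGTCA, found in 1.83% of all promoters) starting 162 bases before the start. The AP-1 site (TGACTCA, 4.63% of all promoters) was found in the windows of Cxcl10, Il11 and Il1a and in none of these 3.

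Interferon-response genes were the list with the highest share of members lower than with PDGF. Of 18 members 16 were tested. With JQ1 plus PDGF 4 were higher and 4 lower than in unstimulated cells (4 and 3 unnormalised). PDGF alone had 13 higher and 1 lower, beside 17.7% and 12.7% of all genes. Against PDGF, 15 of 16 were lower with JQ1 and 0 higher (13 and 0 unnormalised), with a median of -1.43. With JQ1 plus PDGF, all genes gave 34% lower and 7.24% higher against PDGF, and 33.7% and 13.2% against unstimulated cells. Irf7, a regulator of interferon genes, was at 3.95 and 1.76 normalised FPKM in unstimulated cells, 45.5, 60.6 and 46.8 with PDGF and 16.97, 16.3 and 17.5 with JQ1 plus PDGF. It lay 2.28 ± 0.24 above unstimulated cells and -1.52 ± 0.22 from PDGF. Gbp2, a guanylate-binding protein, and Ifih1, a sensor of viral RNA, were also higher than in unstimulated cells, by 2.34 ± 0.17 and 2.26 ± 0.19. Ifit1, an effector that binds foreign RNA, was at 0.0994 and 0.152, 2.67, 2.27 and 2.46 and 0.0778, 0.108 and 0.119, and at 0 on the unnormalised scale in 1 unstimulated and 2 JQ1 plus PDGF libraries. Isg15, a ubiquitin-like effector, reached 21.3, 31.99 and 21.4 with PDGF and 6.39, 3.01 and 5.70 with JQ1 plus PDGF, and its difference of 0.56 ± 0.37 from unstimulated cells (1.49 and 5.29) did not pass. Ddx58, another RNA sensor, fell from 5.52 and 6.54 to 2.73, 2.42 and 2.21 normalised FPKM, a log2 difference of -1.02 ± 0.21. Isg15 did pass without unstimulated replicate 1 (1.23).

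**Figure D4:**
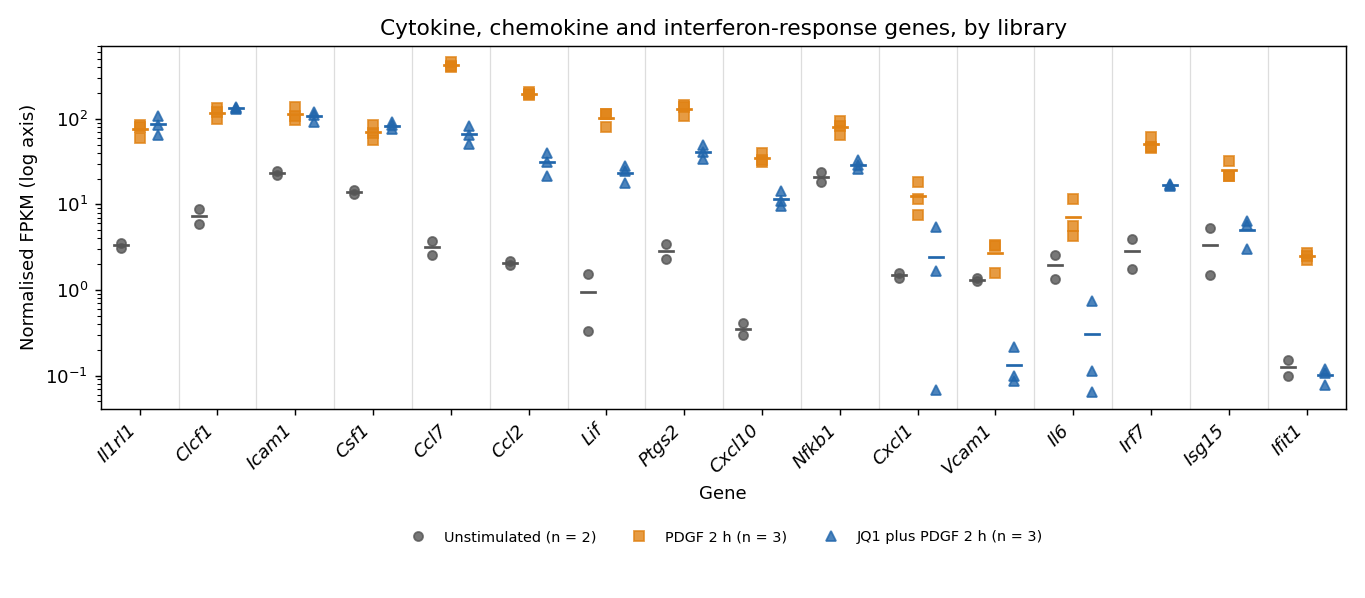
Normalised FPKM (log axis) of 16 cytokine, chemokine and interferon-response genes in each library of the 3 groups, with group means as bars. From left to right, Il1rl1 to Csf1 lie at or near PDGF levels, Ccl7 to Cxcl10 between the groups, and Vcam1 and Il6 below the unstimulated libraries.

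Growth factor genes went both ways. Of 31 members 28 were tested, and 13 were higher and 11 lower than in unstimulated cells (14 and 10 unnormalised). PDGF alone gave 15 and 5, beside 17.7% and 12.7% of all genes. Over all genes 13.2% were higher and 33.7% lower with JQ1 plus PDGF, and 25.3% and 27.4% unnormalised. Against PDGF 1 was higher and 16 lower (4 and 11 unnormalised), beside 7.24% and 34% of all genes (19.9% and 21.5% unnormalised). Hbegf, a ligand of the EGF receptor, went from 53.5 and 55.99 normalised FPKM to 689, 739 and 710.4 with JQ1 plus PDGF, within the span of PDGF (619, 712 and 812). The log2 difference from unstimulated cells was 3.68 ± 0.14, and that from PDGF was 0.00 ± 0.13, though 0.35 and passing on the unnormalised scale. Vegfa, the angiogenic factor, was the member above PDGF, by 0.73 ± 0.11, and 1.09 ± 0.13 above unstimulated cells. Fst, which encodes the activin antagonist follistatin, was at 6.50 and 3.37 normalised FPKM in unstimulated cells, 289, 286 and 440.2 with PDGF and 33.6, 33.2 and 33.6 with JQ1 plus PDGF. The 3 groups were far apart, with Fst 2.59 ± 0.28 above unstimulated cells and -3.27 ± 0.25 from PDGF (limma adjusted p = 2.12e-07). Inhba, an activin subunit, was likewise between the groups (1.46 ± 0.23 and -1.25 ± 0.20). Tgfb3, a TGF-beta ligand, fell from 375 and 440.3 to 95.6, 96.9 and 100.7 normalised FPKM, below the PDGF libraries at 277, 333 and 365, with differences of -2.05 ± 0.13 and -1.71 ± 0.12. The BMP ligands Bmp4 and Gdf6 were also lower than in unstimulated cells, with differences of -1.92 ± 0.17 and -2.97 ± 0.20.

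In the TGF-beta, BMP and Notch list, 20 of 26 members were tested. Of these 7 were higher and 8 lower than in unstimulated cells (9 and 5 unnormalised). PDGF alone gave 6 and 6, beside 17.7% and 12.7% of all genes. All genes gave 13.2% higher and 33.7% lower with JQ1 plus PDGF (25.3% and 27.4% unnormalised), so the lower members of this list were near the general share. The higher members were 4 without unstimulated replicate 0 and the lower ones 5 without replicate 1. Grem1, a secreted BMP antagonist, moved to opposite sides of the unstimulated level. It was at 49.1 and 51.2 normalised FPKM in unstimulated cells, 131, 148 and 165 with PDGF and 17.3, 17.4 and 18.2 with JQ1 plus PDGF. The log2 difference from unstimulated cells was -1.46 ± 0.13 with JQ1 plus PDGF and 1.53 ± 0.13 with PDGF, and between the treated groups it was -2.99 ± 0.12 (limma adjusted p = 8.02e-10). Ltbp1, which tethers latent TGF-beta to the matrix, showed the same order, at 21.1 and 24.6, 39.1, 43.7 and 47.3 and 10.9, 11.2 and 9.74 normalised FPKM. Bambi, a decoy receptor of the family, and Id1, a BMP target, were lower with PDGF (-1.23 ± 0.17 and -1.34 ± 0.43) and did not pass with JQ1 plus PDGF (0.33 ± 0.17 and 0.53 ± 0.43), though Bambi did on the unnormalised scale (0.59). Both were above PDGF, by 1.55 ± 0.16 and 1.87 ± 0.38. Jag1, a Notch ligand, fell in both comparisons, from 60.6 and 64.9 to 11.99, 14.5 and 11.9 normalised FPKM with JQ1 plus PDGF and to 8.97, 8.42 and 10.2 with PDGF. Notch1, a Notch receptor, rose to 18.4, 21.6 and 19.8 from 2.65 and 2.38, a difference of 2.57 ± 0.20.

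Among extracellular matrix genes 21 of 24 were tested, with 7 higher and 3 lower than in unstimulated cells (13 and 1 unnormalised). Over all genes 13.2% were higher and 33.7% lower (25.3% and 27.4% unnormalised). The lower members were 0 without unstimulated replicate 1 and 1 without JQ1 plus PDGF replicate 0. PDGF alone gave 8 higher and 0 lower, beside 17.7% and 12.7% of all genes. Against PDGF 0 were higher and 7 lower with JQ1 (8 and 5 unnormalised), beside 7.24% and 34% of all genes (19.9% and 21.5% unnormalised). Thbs1, a matricellular protein that binds latent TGF-beta, rose from 309 and 367 to 1845, 2409 and 2232 normalised FPKM, 2.67 ± 0.22 on the log2 scale. Tnc, a glycoprotein of remodelling matrix, was at 11.9 and 14.7, 224, 284 and 347 with PDGF and 51.3, 67.4 and 61.8 with JQ1 plus PDGF, and lay 2.10 ± 0.19 above unstimulated cells and -2.21 ± 0.17 from PDGF. Postn, another such protein, was at 258, 210.2 and 253 normalised FPKM with JQ1 plus PDGF, across the unstimulated 249 and 266, while PDGF gave 477, 514 and 604. Its difference from unstimulated cells was -0.10 ± 0.13 and did not pass. Has2, a hyaluronan synthase, was listed at 0 in both unstimulated libraries on the unnormalised scale, and stood at 1.85, 4.01 and 1.62 normalised FPKM with PDGF and 0.118, 0.205 and 0.127 with JQ1 plus PDGF.

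Proteases and their inhibitors were raised in part. Of 19 members 15 were tested (13 on the unnormalised scale), with 7 higher and 3 lower than in unstimulated cells (8 and 2 unnormalised). The shares of all genes were 13.2% and 33.7% (25.3% and 27.4% unnormalised). PDGF alone gave 7 and 2, beside 17.7% and 12.7% of all genes. Against PDGF 4 were higher and 6 lower with JQ1 (5 and 5 unnormalised), beside 7.24% and 34% of all genes (19.9% and 21.5% unnormalised). Serpinb2, an inhibitor of plasminogen activators, was at 0.666 and 0.289 normalised FPKM in unstimulated cells, 8.50, 5.85 and 12.05 with PDGF and 52.9, 63.2 and 57.1 with JQ1 plus PDGF. The groups were apart, and the log2 difference was 5.32 ± 0.26 from unstimulated cells and 2.63 ± 0.23 from PDGF (limma adjusted p = 1.05e-06). Plat, the tissue plasminogen activator, and Timp1, an inhibitor of metalloproteinases, were above both groups too, by 4.11 ± 0.13 and 3.45 ± 0.14 against unstimulated cells and 0.73 ± 0.12 and 1.15 ± 0.12 against PDGF. Plaur, the urokinase receptor, lay between the groups (4.57 ± 0.15 and -0.89 ± 0.13). Mmp14, a membrane-bound metalloproteinase, did not pass against unstimulated cells (-0.33 ± 0.13) and was -1.09 ± 0.12 from PDGF.

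Redox and metal-response genes, which NRF2 and the metal-sensing factor MTF1 are known to drive, were higher in 8 of 11 tested members (13 listed) and lower in 0 (9 and 0 unnormalised), with a median of 1.67. PDGF alone gave 7 and 0, beside 17.7% and 12.7% of all genes. All genes gave 13.2% higher and 33.7% lower with JQ1 plus PDGF. Srxn1, which repairs oxidised peroxiredoxins, was at 10.6 and 7.49 normalised FPKM in unstimulated cells, 335, 388 and 420.3 with PDGF and 741, 819 and 843 with JQ1 plus PDGF. No library overlapped, with differences of 6.33 ± 0.16 from unstimulated cells and 1.07 ± 0.14 from PDGF. Gclc, the catalytic subunit that starts glutathione synthesis, was at 21.96 and 24.8, 35.7, 39.2 and 40.7 and 152, 165 and 152 in the same order, 2.69 ± 0.15 above unstimulated cells and 1.99 ± 0.13 above PDGF. Hmox1, heme oxygenase, rose less than with PDGF (2.37 ± 0.12 beside 3.27 ± 0.12, with -0.90 ± 0.10 between the treated groups). The metallothionein Mt1a rose from 27.7 and 25.6 to 1208, 1933 and 2151 normalised FPKM, and metallothionein copies can share reads. Of the classical NRF2 targets, Nqo1 and Gclm did not pass (-0.17 ± 0.17 and 0.44 ± 0.20), though Gclm did on the unnormalised scale.

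Heat shock genes were higher in 6 of 12 tested members (14 listed) and lower in 0 (8 and 0 unnormalised). With PDGF alone 7 were higher and 0 lower, beside 17.7% and 12.7% of all genes. Against PDGF, 6 were higher and 2 lower (6 and 0 unnormalised). With JQ1 plus PDGF the shares of all genes were 13.2% higher and 33.7% lower against unstimulated cells, and 7.24% and 34% against PDGF. Without JQ1 plus PDGF replicate 1 the members lower than in unstimulated cells were 1. Bag3, a co-chaperone, was at 34.6 and 35.2 normalised FPKM in unstimulated cells, 126, 158 and 174 with PDGF and 394, 466 and 481 with JQ1 plus PDGF. The small heat shock protein gene Hspb1 was at 318 and 372, 594, 582 and 716 and 1432, 1519.9 and 1695. In both the groups were apart, with differences from PDGF of 1.55 ± 0.14 and 1.30 ± 0.14. Dnajb1, a co-chaperone of HSP70, was 2.65 ± 0.16 above unstimulated cells. Hspa1b, a near copy of Hspa1a that can share its reads, varied among the JQ1 plus PDGF libraries (11.2, 96.4 and 99.4 normalised FPKM), with replicate 0 well below the others and below PDGF replicate 1 (3.65, 24.6 and 3.86). Its difference from unstimulated cells was 3.33 ± 0.91. The main chaperone Hsp90ab1 did not pass on the normalised scale (0.36 ± 0.16) and did on the other (0.61). Hspa1b did not pass without unstimulated replicate 1 (3.00).

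The amino acid and endoplasmic reticulum stress list had more members higher than lower, though fewer higher than with PDGF alone. All 25 members were tested, with 11 higher and 5 lower than in unstimulated cells (14 and 4 unnormalised). PDGF alone gave 19 and 1 (19 and 3 unnormalised), beside 17.7% and 12.7% of all genes on the normalised scale. Against PDGF 2 were higher and 15 lower (4 and 12 unnormalised). With JQ1 plus PDGF the shares of all genes were 13.2% higher and 33.7% lower against unstimulated cells, and 7.24% and 34% against PDGF. The chaperone Hspa5 and the glutathione-degrading enzyme Chac1 rose by 1.73 ± 0.14 and 3.05 ± 0.16, and differed from PDGF by 0.19 ± 0.13 and -0.13 ± 0.14, which did not pass, though Hspa5 did on the unnormalised scale (0.55). The stress factor Ddit3 was above both groups (1.26 ± 0.11 and 0.82 ± 0.10). Phgdh, the first enzyme of serine synthesis, was at 71.2 and 77.1 normalised FPKM in unstimulated cells, 130.3, 144 and 153 with PDGF and 48.3, 36.02 and 50.4 with JQ1 plus PDGF. It lay on opposite sides of the unstimulated libraries in the 2 treated groups, with differences of -0.72 ± 0.14 with and 0.93 ± 0.14 without JQ1. Trib3, a pseudokinase induced by ATF4, was at 35.5, 36.7 and 38.9 normalised FPKM with PDGF but at 11.2, 4.88 and 6.37 with JQ1 plus PDGF, overlapping the unstimulated 11.9 and 9.68. Its difference of -0.54 ± 0.26 from unstimulated cells did not pass, but did without JQ1 plus PDGF replicate 0 (-0.84).

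Contractile genes were called at shares near or below those of all genes on the normalised scale. Of 26 members, all tested on the normalised scale and 25 on the other, 4 were higher and 7 lower than in unstimulated cells, beside 13.2% and 33.7% of all genes. On the unnormalised scale 12 were higher and 7 lower, beside 25.3% and 27.4% of all genes, so the count of higher members depends on the scale, and without unstimulated replicate 0 it was 2 on the normalised scale. PDGF alone gave 6 higher and 0 lower (6 and 4 unnormalised), beside 17.7% and 12.7% of all genes on the normalised scale. Against PDGF 2 were higher and 11 lower with JQ1 (9 and 8 unnormalised), beside 7.24% and 34% of all genes (19.9% and 21.5% unnormalised). Acta2, smooth muscle actin, was at 4814 and 5688 normalised FPKM in unstimulated cells and 5981, 6326 and 6289 with JQ1 plus PDGF, a log2 difference of 0.24 ± 0.18 that did not pass on the normalised scale and did on the other (0.49). Actn1, an actinin, rose by 0.89 ± 0.16. Myocd, the coactivator of serum response factor that drives the contractile programme, fell from 5.52 and 5.16 to 0.470, 0.768 and 0.419 normalised FPKM, under all PDGF libraries (3.08, 6.63 and 3.28). The log2 difference was -2.04 ± 0.30 from unstimulated cells and -1.73 ± 0.27 from PDGF (limma adjusted p = 6.10e-05 and 1.36e-04). Lmod1, an actin nucleator of smooth muscle, fell from 52.8 and 53.9 to 18.7, 17.7 and 23.3, a difference of -1.39 ± 0.18.

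Transcription factors tied to smooth muscle state had 26 of 28 members tested, with 11 higher and 7 lower (13 and 7 unnormalised). PDGF alone gave 14 and 3, beside 17.7% and 12.7% of all genes. All genes gave 13.2% higher and 33.7% lower with JQ1 plus PDGF (25.3% and 27.4% unnormalised). The count of lower members was therefore near or below the general share. The ETS factors Ets1 and Ets2 rose by 2.51 ± 0.15 and 3.70 ± 0.19, and their differences from PDGF of 0.02 ± 0.13 and -0.18 ± 0.17 did not pass, though Ets1 did on the unnormalised scale (0.35). Sox9, the chondrogenic factor, was between the groups, at 58.9, 58.6 and 65.2 normalised FPKM against 12.6 and 11.96 in unstimulated cells and 126, 144 and 156 with PDGF. Etv5, an ETS factor downstream of ERK, was at 5.60 and 6.27 and 6.13, 8.28 and 8.23 normalised FPKM in those groups and at 24.1, 30.5 and 27.2 with JQ1 plus PDGF, apart from both. Klf15, a factor that opposes smooth muscle proliferation, fell from 15.8 and 12.00 to 1.52, 2.68 and 1.83, less far than with PDGF (0.412, 0.406 and 0.349), and the treated groups differed by 1.10 ± 0.23. Prrx1, a homeobox factor of mesenchymal cells, was at 19.6 and 26.8 normalised FPKM in unstimulated cells, 17.9, 27.96 and 28.7 with PDGF and 2.96, 3.41 and 3.11 with JQ1 plus PDGF. Unstimulated and PDGF libraries overlapped, and the JQ1 plus PDGF libraries lay under all of them, with differences of -2.52 ± 0.19 and -2.61 ± 0.17.

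Cell cycle genes were mostly lower with JQ1 plus PDGF. Of 24 genes of the G2 phase and mitosis, all tested, 23 were lower and 0 higher than in unstimulated cells (21 lower unnormalised), with a median of -1.33 against -0.27 over all genes. PDGF alone gave 14 lower and 0 higher, beside 12.7% and 17.7% of all genes. Against PDGF 18 were lower with JQ1 (13 unnormalised). With JQ1 plus PDGF, 33.7% of all genes were lower and 13.2% higher than in unstimulated cells, and 34% lower than with PDGF. Plk1, a mitotic kinase, was at 32.2 and 26.99 normalised FPKM in unstimulated cells, 11.95, 11.5 and 11.2 with PDGF and 2.76, 4.19 and 4.41 with JQ1 plus PDGF. The groups were apart, and Plk1 lay -2.69 ± 0.21 from unstimulated cells and -1.41 ± 0.19 from PDGF. Ccnb1, cyclin B1, was -2.09 ± 0.21 and -1.38 ± 0.19 from the same groups. Of 26 tested genes of the G1/S transition and replication (27 listed, E2f8 not analysed here), 16 were lower and 2 higher (15 and 4 unnormalised), beside 3 and 1 with PDGF alone (8 and 2 unnormalised). Ccnd1, cyclin D1, fell from 83.5 and 91.02 to 40.9, 41.5 and 43.1 normalised FPKM, below PDGF at 77.8, 78.2 and 98.6, with differences of -1.04 ± 0.13 and -0.995 ± 0.12. Mcm3, a subunit of the replicative helicase, fell from 16.9 and 15.2 to 2.68, 3.95 and 3.27. Pcna, the replication clamp, was one of the 2 higher members, by 0.67 ± 0.12, and these were 1 without either unstimulated replicate or JQ1 plus PDGF replicate 1.

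Genes of quiescence and of the FoxO factors were lower in 13 and higher in 6 of 28 tested members (29 listed, Gas1 not analysed here), and 12 and 7 on the unnormalised scale. PDGF alone gave 13 lower and 5 higher, beside 12.7% and 17.7% of all genes. Against PDGF 11 were higher and 4 lower with JQ1 (13 and 1 unnormalised). With JQ1 plus PDGF, all genes gave 33.7% lower and 13.2% higher than in unstimulated cells, and 7.24% higher and 34% lower than with PDGF. The higher members than in unstimulated cells were 3 without unstimulated replicate 0. Txnip, which binds thioredoxin and limits glucose uptake, was at 60.4 and 72.3 normalised FPKM in unstimulated cells, 2.37, 3.99 and 3.09 with PDGF and 8.59, 7.60 and 7.32 with JQ1 plus PDGF. Both treated groups were far below the unstimulated libraries and apart from each other, at -2.93 ± 0.18 with JQ1 and -4.03 ± 0.18 without. Btg1, an antiproliferative protein, and Cdkn1b, the inhibitor p27, were likewise less low with JQ1 plus PDGF than with PDGF. Their differences from unstimulated cells were -0.60 ± 0.13 and -0.80 ± 0.16, and from PDGF 0.96 ± 0.11 and 0.75 ± 0.14. Cdkn1a, the inhibitor p21, rose from 90.8 and 103 to 325, 375 and 361 normalised FPKM, above PDGF at 219, 193 and 279.7, with differences of 1.86 ± 0.14 and 0.63 ± 0.13.

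Hexim1, which holds P-TEFb inactive and is a known marker of BET inhibition, was at 39.8 and 36.6 normalised FPKM in unstimulated cells, 18.3, 27.2 and 22.7 with PDGF and 92.8, 99.4 and 103 with JQ1 plus PDGF. The 3 groups were apart. The log2 difference was 1.34 ± 0.15 from unstimulated cells and 2.08 ± 0.13 from PDGF (limma adjusted p = 3.89e-06 and 3.51e-08). Among 12 tested genes of BET proteins and P-TEFb (16 listed), 4 were higher and 3 lower (6 and 1 unnormalised). Over all genes 13.2% were higher and 33.7% lower (25.3% and 27.4% unnormalised), so the lower members did not exceed the general share. The lower members were 1 without unstimulated replicate 1. Brd2, a BET protein, was listed low, at 0.909 and 0.513 in unstimulated cells and 2.27, 4.97 and 2.75 with JQ1 plus PDGF, and differed by 1.30 ± 0.27. Of 10 reported BET inhibitor response markers 7 were tested, with 2 higher (Hexim1 and Hist1h2bk) and 2 lower (Zmynd8 and Zcchc24), and 3 and 1 on the unnormalised scale. Zmynd8, a reader of histone marks, was lower by a difference of -2.82 ± 0.28, and histone copies such as Hist1h2bk can share reads. Zcchc24 (-0.62 ± 0.23) did not pass on the unnormalised scale (-0.37), nor without unstimulated replicate 0 (-0.61) or 1 (-0.62) or JQ1 plus PDGF replicate 0 (-0.59) or 2 (-0.58).

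Among all genes, Arc had the highest log2 difference from unstimulated cells by the rule used for naming genes. Arc, an immediate early gene studied mainly in neurons, was at 2.33 and 0.991 normalised FPKM in unstimulated cells, 52.6, 66.8 and 66.3 with PDGF and 256, 346 and 306 with JQ1 plus PDGF. The JQ1 plus PDGF libraries were above all others, by 6.87 ± 0.24 and 2.27 ± 0.22. Sprr1a, a small proline-rich protein, and Hmga1, an architectural chromatin protein, followed a PDGF response that was also present with JQ1, with differences from unstimulated cells of 6.81 ± 0.27 and 5.02 ± 0.20. Polg2, the accessory subunit of the mitochondrial DNA polymerase, behaved otherwise. It was at 1.72 and 3.86 normalised FPKM in unstimulated cells, 5.27, 4.65 and 4.62 with PDGF and 50.9, 70.2 and 63.1 with JQ1 plus PDGF. Its difference of 0.68 ± 0.27 with PDGF did not pass, whereas it was 4.09 ± 0.27 with JQ1 plus PDGF, which put it first among genes above both other groups when ranked by the smaller difference. Mknk2, a kinase that phosphorylates the cap-binding factor eIF4E, was at 36.9 and 41.6, 24.7, 29.1 and 34.6 and 145, 188 and 182 normalised FPKM in the same order. Cnnm4, a magnesium transporter, was 2.76 ± 0.29 above unstimulated cells.

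Wisp2, a matricellular protein of the CCN family, was at 168 and 196 normalised FPKM in unstimulated cells, 100.1, 116 and 122 with PDGF and 13.6, 12.2 and 13.6 with JQ1 plus PDGF. Its groups were apart, with a log2 difference of -3.69 ± 0.19 from unstimulated cells and -3.01 ± 0.17 from PDGF (limma adjusted p = 7.64e-10 and 1.28e-08). Sorbs2, an adaptor of the actin cytoskeleton, was at 52.4 and 53.6, 33.3, 42.5 and 44.00 and 5.05, 5.30 and 4.12. Its unstimulated and PDGF libraries were apart but differed by -0.41 ± 0.16, which did not pass on the normalised scale. Cd180, a Toll-like receptor homologue, and Cmklr1, the chemerin receptor, fell, with differences of -3.31 ± 0.17 and -3.12 ± 0.15. Fam150a, which encodes a ligand of the kinase ALK, had the lowest difference, -4.16 ± 0.43, and replicate 1 was listed at 0 on the unnormalised scale. Pln, phospholamban, an inhibitor of the calcium pump SERCA, and Mrvi1, a target of cGMP-dependent kinase in smooth muscle, fell from 14.01 and 10.99 to 0.523, 0.885 and 0.465 and from 31.2 and 35.6 to 3.27, 2.88 and 3.79 normalised FPKM. Their differences from unstimulated cells were -3.06 ± 0.32 and -2.998 ± 0.19.

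**Figure D5:**
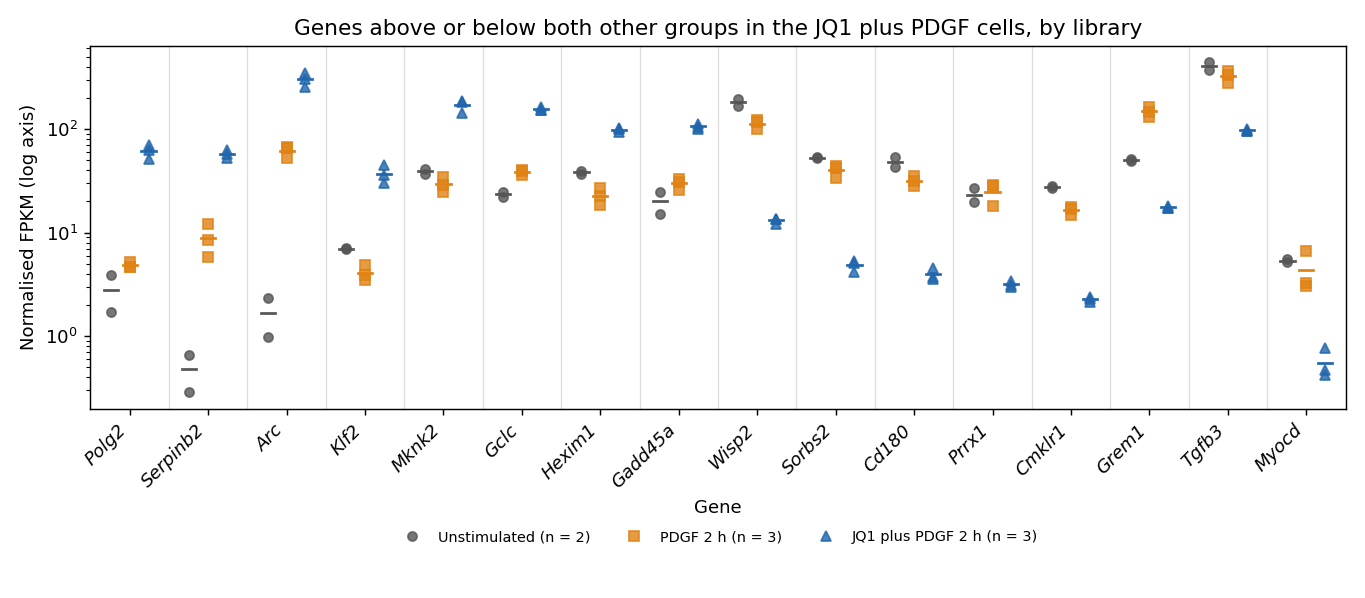
Normalised FPKM (log axis) of 16 genes in each library of the 3 groups, with group means as bars. From Polg2 to Gadd45a every JQ1 plus PDGF library lies above every library of the other groups, and from Wisp2 to Myocd every one lies below them.

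The remaining lists are read against the share of all genes with JQ1 plus PDGF, 13.2% higher and 33.7% lower, and 25.3% and 27.4% unnormalised. With PDGF alone the normalised shares were 17.7% and 12.7%. Ribosome biogenesis had 24 of 25 members tested against unstimulated cells. Of these 8 were higher and 5 lower (15 and 2 unnormalised), beside 16 and 0 with PDGF alone (17 and 1 unnormalised). Without unstimulated replicate 0 the counts were 5 and 3, and without replicate 1, or JQ1 plus PDGF replicate 0 or 1, the lower members were 2 or 3. Nop56, a core protein of box C/D small nucleolar particles, rose by 1.14 ± 0.14, and its difference from PDGF was -0.05 ± 0.13, turning to 0.28 and passing on the unnormalised scale. Glycolysis had 9 of 18 tested members higher and 1 lower (13 and 1 unnormalised). Without unstimulated replicate 0 the higher members of that list were 4. The hexokinase gene Hk2 reached 87.5, 93.1 and 90.1 normalised FPKM from 11.6 and 12.2, under 161, 184 and 193 with PDGF, while the glucose transporter Slc2a1 was 2.05 ± 0.16 above unstimulated cells and 0.59 ± 0.15 above PDGF. Cholesterol synthesis had 22 members, all tested, with 5 higher and 12 lower (6 and 11 unnormalised), beside 7 and 3 with PDGF alone. Its higher members included Idi1 (1.69 ± 0.11) and Insig1 (1.28 ± 0.15), and its lower ones Dhcr7 (-1.33 ± 0.30), the last enzyme of the pathway. Lysosome and autophagy genes were called at shares near or below those of all genes on the normalised scale, with 4 of 21 tested members higher and 4 lower, and 10 and 2 on the unnormalised scale. Without unstimulated replicate 0 the higher ones were 2, and without replicate 1 the lower ones were 2. Circadian clock genes had 2 higher and 5 lower of 11 tested (3 and 5 unnormalised). Of 10 tested reference genes 2 were higher and 3 lower (4 and 3 unnormalised), with 1 higher without unstimulated replicate 0 or JQ1 plus PDGF replicate 2.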

How the data were processed

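RNA from 14 libraries of rat aortic smooth muscle cells, in 5 groups, was sequenced by the study as 40 base single reads from stranded, polyadenylated libraries with spike-ins, per the labels' protocols. The submitters' processing notes name HISAT, Cufflinks 2.0.0 and rn6. The authors deposited FPKM values, unnormalised and normalised, for 17312 genes and 92 spike-ins, and no source used here gives their way of normalising. Spike-ins were left out of tests. Tests took genes that reached 1 normalised FPKM in 2 or more libraries and used limma 3.58.1 (R 4.3.3) on log2(FPKM + 1), in one model over all groups with 9 residual degrees of freedom and a mean trend, with p-values adjusted over all tested genes. Adding 1 understates the change of low genes. The unnormalised FPKM was tested the same way. The fit was tested on simulated data with independent noise and no shift between libraries, so that run cannot judge the differences between the scales. The libraries compared and the gene lists were chosen with earlier results of these data known, so list counts are descriptions. Genes were named from the lists and by rank: the 15 highest and 15 lowest differences from unstimulated cells, and the 10 most above and 10 most below both other groups, among those past the threshold on both scales (for differences from unstimulated cells, also with ranges apart), without small RNA, ribosomal protein and unnamed loci. Il11, Il1a, Klf6 and single promoters were named after their values were seen. Alternatives were other pseudocounts (0.1, 0.5), filters, scalings and libraries left out.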

Additional observations from a re-analysis of the deposited data

How the results depend on the processing

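The counts of genes higher or lower than in unstimulated cells stayed within 1.5 times of the reported 1339 and 3410 under other pseudocounts, filters, the fit of the 5 libraries alone and the fit without a mean trend. They also did so when PDGF replicate 1 and a library of another time point, a choice made after seeing the data, were left out together. The scaling moved them: the higher genes were 2527 on unnormalised FPKM and 2557 on FPKM divided by median-of-ratios size factors. Against PDGF, the higher genes were 1986 and 2003 under these scalings and the lower ones 2152 and 2143. For PDGF against unstimulated cells, the lower genes were 1957 unnormalised. The cause of these shifts beyond the scaling itself was not tested. Leaving out 1 library at a time gave 916 to 1308 higher and 2369 to 3260.0 lower genes for JQ1 plus PDGF against unstimulated cells, 537 to 753 and 2772 to 3886 against PDGF, and 1019 to 2043 and 582 to 1515 for PDGF against unstimulated cells. Against PDGF, some differences near 0, such as those of Acta2 and Actn1, changed sign when a library was left out, and 2 turned to a passing difference of the other sign: Icam1 was at 0.25 and Nop56 at 0.28 on the log2 scale under both the unnormalised and the median-of-ratios scaling. No paired analysis was possible because the columns carry digits that do not match the letters in the titles, the JQ1 libraries share no letter with the others, and the PDGF and unstimulated libraries share 1 letter. Depth is unknown, so no counting error could be given, and genes near 0 FPKM are the least certain.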
